A study of Mus musculus with 2 samples.

Results

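Intergenic Suz12 peaks were the stretches of the mouse genome that carried Suz12 away from every annotated protein-coding gene. They were chosen by position alone: a peak was kept where it overlapped no protein-coding gene body and lay more than 2.5 kb from either end of every protein-coding gene and of every lncRNA (long non-coding RNA) gene in a RefSeq table of build GRCm38. The rule kept 241 of the 3373 peaks in the list, or 7.14% (exact 95% interval 6.30 to 8.07). The peaks came from wild-type E14 cells, a mouse embryonic stem cell line, after 72 h of differentiation, for which serum medium was given 1 µM ATRA (all-trans-retinoic acid) and lacked leukemia inhibitory factor (LIF), a cytokine that keeps such cells undifferentiated. The series also has a library from Suz12-KO cells, which lack Suz12, at 0 h, made with the same D39F6 XP antibody and not analysed here. Genotype and time differ between the groups together and each has 1 library, so there was no comparison between groups, no replicate error and no p-value. The title of the series ties recruitment of PRC2 at CpG islands to the silencing of genes.

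Suz12 belongs to the core of PRC2 (Polycomb Repressive Complex 2), which methylates lysine 27 of histone H3. In embryonic stem cells PRC2 is known chiefly from CpG-rich promoters of silent developmental regulators, and Polycomb Repressive Complex 1 (PRC1) includes Cbx proteins that read the methyl mark. Peaks between genes can cover starts of unlisted transcripts, microRNA genes, distal regulatory elements or pseudogenes, and a peak list alone does not tell these apart.

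Among the 10 intergenic peaks with a score of 3100 or more, 3 covered genes of neural microRNAs, small RNAs that pair with messenger RNAs through their seed. The mature sequences of 5 of the covered genes are therefore given first, to show what these peaks encode. Mir3093, Gm25641, Mir129b and Mir7229 were covered as well and are not printed. The sequences are from RefSeq, GRCm38.p6, 5′ to 3′, with the seed (bases 2 to 8) in capitals, and the 8 seeds shown all differ. The miR-9 pair was encoded under the peaks chr3:88213250-88216730 (Mir9-1, plus strand) and chr7:79503966-79510441 (Mir9-3, plus strand). The other pairs lay under chr2:94239304-94242499 (Mir129-2, minus strand), chr3:118433064-118435476 (Mir137, plus strand) and chr11:79710733-79712462 (Mir193a, plus strand).
miR-9-5p: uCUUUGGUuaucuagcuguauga
miR-9-3p: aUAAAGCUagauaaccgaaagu
miR-129-5p: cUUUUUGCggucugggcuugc
miR-129-2-3p: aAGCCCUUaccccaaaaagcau
miR-137-5p: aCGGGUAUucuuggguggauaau
miR-137-3p: uUAUUGCUuaagaauacgcguag
miR-193a-5p: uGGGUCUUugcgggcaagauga
miR-193a-3p: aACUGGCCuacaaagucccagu

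In all, 8 intergenic peaks (3.32%, exact 95% interval 1.44 to 6.44) covered 13 microRNA genes, of which 9 had a sequence in the table. The share was 0.797% among peaks at protein-coding gene ends, 0.391% among peaks inside genes and 0.909% (0.0230 to 4.96) among peaks at lncRNA ends only, whose interval overlaps that of the intergenic peaks. To give a base by length, windows of 1478 bp, the median width of the intergenic peaks, were laid every 1 kb along the chromosomes and kept where the same rule held, which was the case for 53.3% of them. Of these windows, a base for the intergenic peaks only, 0.0252% touched a microRNA gene. The peaks over Mir9-1, Mir9-3 and Mir124a-3 each had a score of 3100, and the peak that reached Mir124a-2 had a score of 678. The third miR-9 gene, Mir9-2, was not covered: the nearest peak, with a score of 232, ended 324 bp before it. Mir129-2, whose product is abundant in brain, lay under a peak with a score of 1489, and a further peak with a score of 423 began 1457 bp away. Mir137, another neuronal microRNA gene, lay under a peak with a score of 849, with a second peak of score 391 at 2456 bp. Mir193a was covered at a score of 447 and Mir7229 at 236. The map of peaks around microRNA genes shows more than 1 intergenic peak at each of Mir9-2, Mir9-3, Mir129-2 and Mir137. Mir9-1, Mir124a-2, Mir124a-3 and Mir193a had 1 each.

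**Figure D1:**
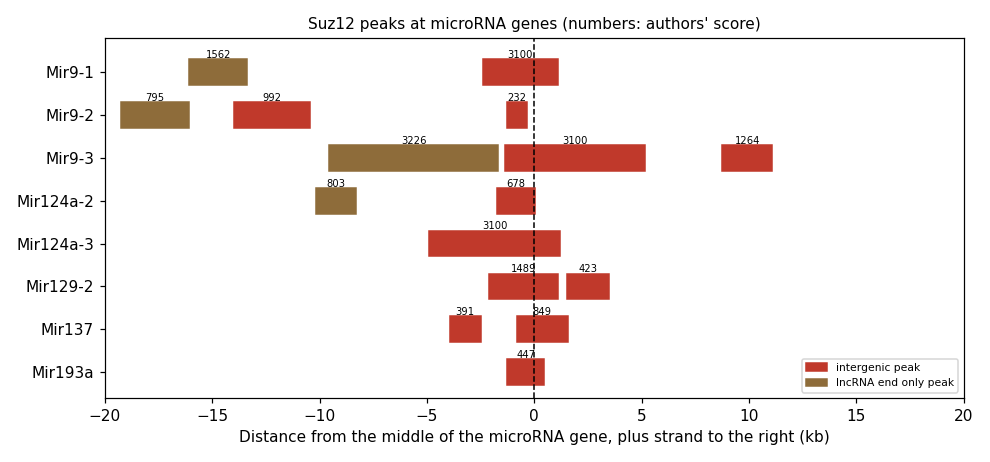
Suz12 peaks around 8 microRNA genes, drawn by distance from the middle of the gene (kb, plus strand to the right) and coloured by class, with the authors' score above each peak. The dashed line is the microRNA gene. It falls inside an intergenic peak in every row except Mir9-2, where the nearest peak (score 232) stops short of it, and at Mir124a-2 it falls close to the peak's end.

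Some lncRNA genes have a start in the RefSeq promoter table that is not an outer end of the gene, and such a start can lie inside an intergenic peak. The 4 such windows, each 250 bases before to 50 bases after a start, are shown because Suz12 is known from CpG-rich starts (RefSeq, GRCm38.p6, 5′ to 3′, every CG in capitals). The Gm3764 window is chr3:88214232-88214531 (plus strand), under the peak with a score of 3100 that covers Mir9-1. The Mir9-3hg window is chr7:79515185-79515484 (plus strand), under a peak with a score of 1264. The C130071C03Rik window is chr13:83727856-83728155 (plus strand), under a peak with a score of 992 on the Mir9-2 side. The Gm35782 window is chr19:45065170-45065469 (minus strand), under a peak with a score of 178.
Gm3764: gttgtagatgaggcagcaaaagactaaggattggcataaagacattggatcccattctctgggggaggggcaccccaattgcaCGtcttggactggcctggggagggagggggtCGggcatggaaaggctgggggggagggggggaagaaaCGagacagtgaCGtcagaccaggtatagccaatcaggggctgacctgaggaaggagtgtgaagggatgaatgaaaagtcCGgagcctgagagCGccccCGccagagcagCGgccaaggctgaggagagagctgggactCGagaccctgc
Mir9-3hg: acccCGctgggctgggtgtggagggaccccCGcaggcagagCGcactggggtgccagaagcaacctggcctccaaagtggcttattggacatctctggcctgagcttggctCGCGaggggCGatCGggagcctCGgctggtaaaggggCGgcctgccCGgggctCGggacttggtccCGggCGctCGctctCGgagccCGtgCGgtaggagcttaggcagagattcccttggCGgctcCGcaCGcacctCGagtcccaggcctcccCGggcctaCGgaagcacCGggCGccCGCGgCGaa
C130071C03Rik: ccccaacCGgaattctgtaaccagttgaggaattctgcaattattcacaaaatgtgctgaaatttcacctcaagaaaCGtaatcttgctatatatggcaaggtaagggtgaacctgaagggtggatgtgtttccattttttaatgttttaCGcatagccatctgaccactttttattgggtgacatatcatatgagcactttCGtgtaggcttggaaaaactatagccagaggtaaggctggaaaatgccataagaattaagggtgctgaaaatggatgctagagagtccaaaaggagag
Gm35782: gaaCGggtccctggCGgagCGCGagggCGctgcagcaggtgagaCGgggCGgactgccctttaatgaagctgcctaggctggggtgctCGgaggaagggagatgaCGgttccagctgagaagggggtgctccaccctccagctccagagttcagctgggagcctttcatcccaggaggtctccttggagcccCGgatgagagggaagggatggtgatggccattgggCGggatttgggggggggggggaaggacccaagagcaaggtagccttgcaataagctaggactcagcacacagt

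The Mir9-3hg window held 28 CG dinucleotides at 70.7% G and C, and 14.2% of all promoter windows in the RefSeq table held as many or more. The Gm35782 window held 11 at 63.0% G and C (41.4% of all windows) and the Gm3764 window 9 at 59.7% (45.8%). The C130071C03Rik window held 4 at 40.3%, a count reached by 68.6% of all windows. Among windows of lncRNA genes alone, as many were held by 5.65% for Mir9-3hg and 16.9% for Gm35782. The shares were 21.7% for Gm3764 and 54.9% for C130071C03Rik. The motif was the 2 letters CG, which read the same on both strands.

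Intergenic peaks were narrower and lower than peaks at gene ends. Their median width was 1478 bp (95% interval of the median 1371 to 1666) with a range from 588 to 8078 bp, against 1921 bp (1875 to 1974) at the ends of protein-coding genes and 1666 bp (1587 to 1745) inside genes. Their median score, the authors' own value per peak on a scale that the file does not state, was 405 (336 to 454), against 623 (591 to 662) at gene ends and 471 (410 to 536) inside genes. A score of 3100, at which 325 peaks of the list are tied, was reached or passed by 10 intergenic peaks (4.15%, 2.01 to 7.50), by 10.5% of all peaks and by 12.2% of those at gene ends. Only 5 intergenic peaks (2.07%) were wider than 5 kb, against 7.65% at gene ends. In the plot of score against width the red points end at 8078 bp while other peaks reach 20581 bp, and 62.7% of them lie below the list's median score. At scores of at least that median the rule kept 90 peaks, with a median width of 2472 bp. These intervals cover counting error only, and neighbouring peaks are not independent.

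**Figure D2:**
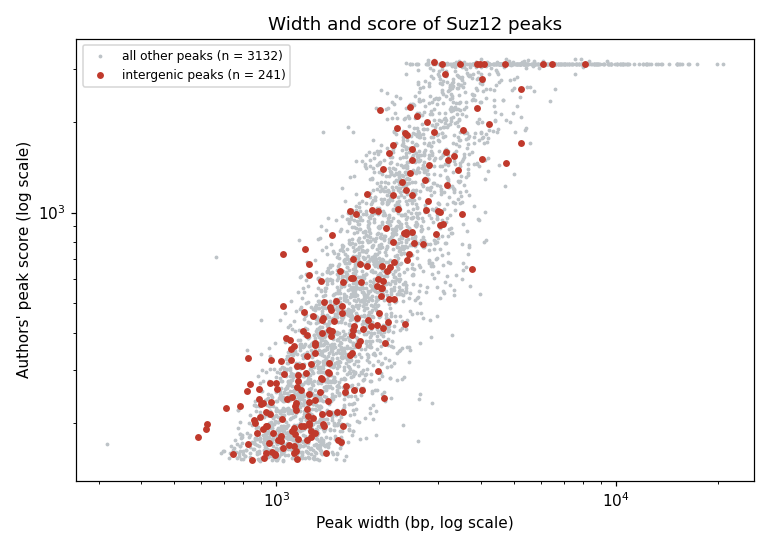
Width (bp) against the authors' score, both on log axes, for 241 intergenic peaks (red) and 3132 other peaks (grey). Intergenic peaks run from 588 to 8078 bp and the others from 318 to 20581 bp, and 4.15% of intergenic peaks lie at or above 3100, where 325 peaks of the list are tied.

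The intergenic peaks lay far closer to genes than intergenic sequence does. Their median distance to the nearest protein-coding gene was 12386 bp (10265 to 16909), against 108274 bp for the windows. It was 20535 bp when neighbours up to 3 kb apart were merged before the rule was applied, a setting added after seeing the data, and 19772 bp when 5 kb was kept clear of genes. Within 10 kb lay 104 peaks (43.2%) but 10.5% of windows, and beyond 100 kb lay 12 peaks (4.98%) but 51.7% of windows. Between 2.5 and 5 kb there were 0.741 peaks per 1000 windows, between 10 and 50 kb 0.283, and beyond 100 kb 0.0167. Among those just inside the limit of the rule was a peak 2715 bp from En2, a homeobox gene of the midbrain and hindbrain (score 588). The closest left out was 2482 bp from Nr4a2, a nuclear receptor gene of dopamine neurons (score 963), followed by one 2434 bp from Nr2f2 (score 442).

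The nearest gene itself carried Suz12 in about as many cases as not. For 128 intergenic peaks (53.1%, 46.6 to 59.5) the nearest gene had a peak within 2.5 kb of an end. The same held for 19.9% of windows and for 11.7% of all protein-coding genes. With either flanking gene counted it held for 158 peaks (65.6%). The share fell with distance, from 83.3% (35 of 42) at 2.5 to 5 kb and 62.9% at 5 to 10 kb to 44.8% at 10 to 50 kb, 31.0% (9 of 29) at 50 to 100 kb and 16.7% (2 of 12) beyond 100 kb, while that of windows went from 12.3% to 22.6%. In both bins beyond 50 kb the interval of the peaks' share spans the windows' value (20.6% at 50 to 100 kb). Where the nearest gene had a peak at an end, the best of its end peaks was compared with the intergenic peak, with scores above 3100 counted as 3100. The intergenic peak had the lower score in 107 of 128 cases, an equal score in 4 and the higher score in 17.

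**Figure D3:**
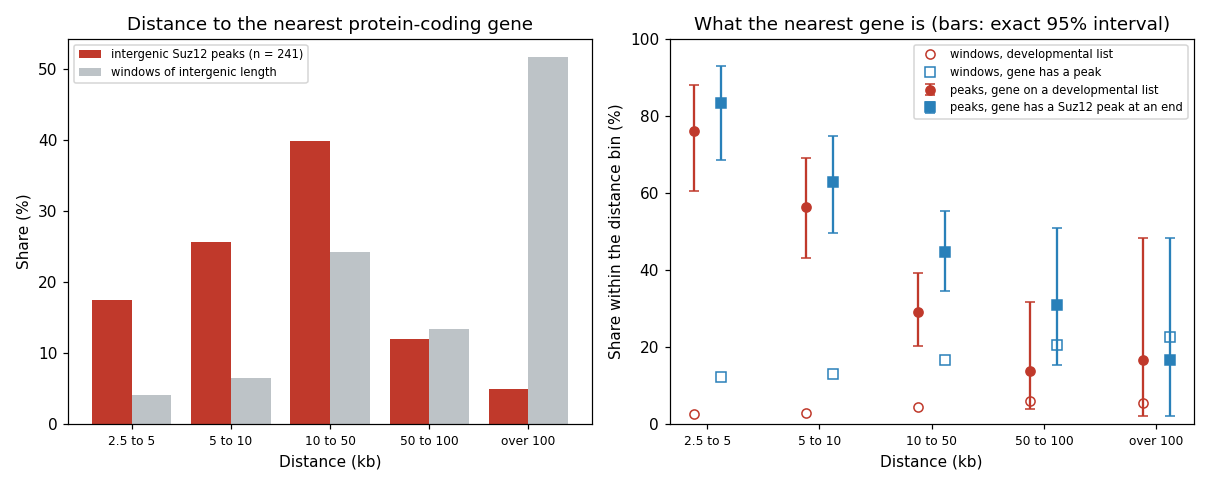
Left: share (%) of 241 intergenic peaks and of kept windows by distance to the nearest protein-coding gene (kb). Right: within each bin, the share (%) of peaks (filled, with exact 95% intervals) and windows (open) whose nearest gene is on a developmental list or has a Suz12 peak at an end. Peaks near genes had a Suz12-bearing neighbour in 83.3% of cases at 2.5 to 5 kb, and 16.7% beyond 100 kb.

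Developmental regulators were common neighbours. The 7 lists of 474 such genes (transcription factors, and ligands and receptors of developmental signalling) held the nearest gene of 101 intergenic peaks (41.9%, 35.6 to 48.4), against 5.12% of windows. The share was 25.6% when 10 kb was kept clear of genes. Of listed developmental genes 77.4% had a Suz12 peak at an end, and of these 101 peaks 96 had a nearest gene with one. Of windows nearest to developmental genes 71.9% had a nearest gene with one. Of the 140 other intergenic peaks 32 did (22.9%, 16.2 to 30.7). That interval includes the 17.1% of windows nearest to other genes. The 5 peaks whose developmental nearest gene had no peak at an end were nearest to Noto, Nr2f1 (2 peaks), Hoxc4 and St18. The lists were written with earlier results of these data known and say nothing independent about direction.

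Transcription factor genes made up nearly all of this. The 6 transcription factor lists (369 genes) were nearest to 99 peaks (41.1%, 34.8 to 47.6; 4.22% of windows), and 65 of the 69 genes concerned had a peak at an end. Homeobox factors outside the Hox clusters, which pattern the embryo, were nearest to 49 intergenic peaks (20.3%; 1.26% of windows) over 31 of 115 listed genes. The highest scores among them were 3148 beside Nkx2-1 (ventral forebrain, thyroid and lung), 3100 beside Vax2 (ventral eye), 3100 beside Gsx2 (ventral forebrain) and 2778 beside Onecut2 (liver and motor neurons). Forkhead, T-box and Gata factors were nearest to 15 peaks (6.22%; 0.567% of windows), led by Foxd1 (kidney stroma, 1835), Foxf2 (1505), Foxd3 (neural crest, 1357), Foxf1 (lung mesenchyme, 1012) and Tbx3 (limb and heart, 888). Pax, Sox, Zic and POU factors were nearest to 10 peaks (4.15%; 0.758% of windows), led by Sox2 (2560), Sox1 (neural progenitors, 1969), Pax2 (1803) and Pou4f2 (retinal ganglion cells, 1145). Basic helix-loop-helix factors were nearest to 9 (3.73%; 0.261% of windows), led by the proneural gene Neurog1 (3100), Sim2 (1583), Neurod2 (cortical neurons, 1441), Neurog2 (859) and Twist1 (mesenchyme, 846). Zinc-finger, nuclear receptor and other factors were nearest to 10 peaks (4.15%, against 1.37% of windows). The highest scores were for Nfib (lung and brain, 1387), Nr2f2 (veins, 1237), Ebf1 (B cells, 913), Scrt2 (neurons, 908) and Osr1 (kidney, 760). A nearest gene can be far away: the Nr2f2 peak lay at 68999 bp and the Osr1 peak at 332588 bp. The median distance was 24681 bp for this last list and 6163 bp for the homeobox factors.

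Hox genes, which set position along the body axis, were nearest to 6 intergenic peaks (2.49%; 0.0257% of windows). The scores were 1574 and 259 beside Hoxc13, 1009 beside Hoxa13, 861 beside Hoxb13, 276 at 48802 bp from Hoxc4 and 198 at 15050 bp from Hoxb9. These are mostly edge members of their clusters. The rule keeps little sequence between closely spaced genes, so this position is not a result about the Hox genes. Signalling genes (Wnt, BMP, TGF-beta, hedgehog, FGF and Notch) were nearest to 2 peaks (0.830%, against 0.904% of windows). These lay 42855 bp from Wnt7b (1145) and 3008 bp from Dll1 (419).

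The other lists held the nearest gene of 6 or fewer peaks each. Ion channels and neurotransmitter receptors, of which 69 of 105 had a peak at an end, were nearest to none of the 241 peaks, which allows a share of up to 1.52%, and to 1.76% of windows. Axon guidance and neuronal adhesion genes were nearest to 1 peak, at Ntn1 with a score of 160 (0.415%, up to 2.29%; 5.07% of windows). Pluripotency genes were nearest to 6 peaks (2.49%; 0.371% of windows), at Sox2 (2560), Tbx3 (888), Gbx2 (242), Socs3 (176) and Dppa3 (162), of which Sox2, Tbx3 and Gbx2 also stand on a transcription factor list. The peaks nearest to Socs3 and Dppa3 lay 34581 and 32323 bp from those genes. Housekeeping genes were nearest to none (0.0314% of windows).

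A count over genes rather than peaks, restricted to genes with a Suz12 peak at an end, set these groups on one base. Of transcription factor genes with such a peak 65 of 299 (21.7%, 17.2 to 26.9) were the nearest gene of an intergenic peak, against 31 of 2241 genes on no transcription factor list (1.38%, 0.942 to 1.96). At genes whose best end peak had a score of 3100 or more, the shares were 43 of 176 (24.4%, 18.3 to 31.5) and 7 of 176 (3.98%, 1.61 to 8.02). The zinc-finger, nuclear receptor and other factors were in that stratum at 1 of 32 (3.13%, 0.0791 to 16.2). Among the lists the share was 28.6% for homeobox factors (30 of 105), 24.4% for forkhead, T-box and Gata factors (10 of 41), 11.9% for zinc-finger and other factors (7 of 59), 2.94% for signalling genes (2 of 68), 28.6% for pluripotency genes (4 of 14, 8.39 to 58.1) and 0 of 69 for channels and receptors (up to 5.21%). Genes differ in how much kept sequence surrounds them, so the count was also taken per length. Within 10 kb of transcription factor genes with an end peak there were 24.2 intergenic peaks per Mb of windows (65 peaks over 2.69 Mb), against 0.557 per Mb (9 over 16.2 Mb) for the rest. For the zinc-finger and other factors alone the value was 3.23 per Mb (2 peaks). A peak caller can report 1 stretch of signal as several peaks, and the list alone does not show where it did. With peaks within 3 kb joined, 40 of 299 transcription factor genes (13.4%, 9.73 to 17.8) and 25 of 2241 other genes (1.12%) were still the nearest gene of an intergenic region.

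**Figure D4:**
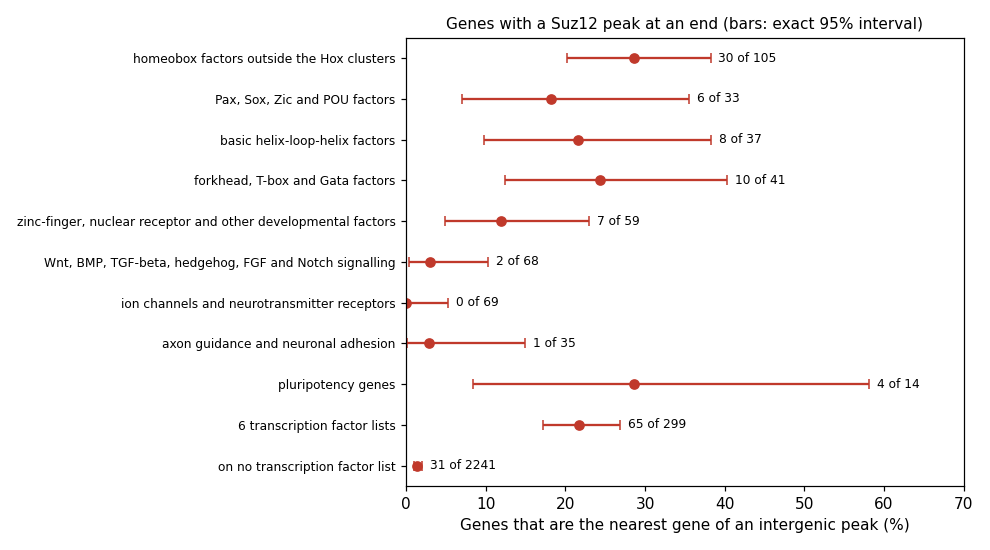
Share (%) of genes with a Suz12 peak at an end that are the nearest gene of an intergenic peak, by list, with exact 95% intervals and the counts beside each bar. The transcription factor lists drawn lie between 11.9% and 28.6%, and genes on no such list at 1.38%. Hox genes (4 of 25, 16%, 4.54 to 36.1) and housekeeping genes are not drawn.

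The distance to the next peak was also measured. Another peak lay within 3 kb of 79 (32.8%), within 10 kb of 122 (50.6%) and within 50 kb of 162 (67.2%). Within 10 kb the share was 23.7% for gene-end peaks (22.1 to 25.5), 35.2% for intragenic peaks (31.0 to 39.5), 44.5% for lncRNA-end peaks (35.1 to 54.3) and 28.1% over all peaks, and 1.28% of kept windows had any peak that near. The interval of the intergenic peaks (44.1 to 57.1) lies above those of gene-end and intragenic peaks and overlaps that of lncRNA-end peaks. With peaks within 3 kb joined, 28.6% of the intergenic regions had another within 10 kb. The median gap to the nearest other peak was 9200 bp. That neighbour was a gene-end peak for 134 (55.6%), another intergenic peak for 75 (31.1%), a lncRNA-end peak for 21 and an intragenic peak for 11. Over the whole list 74.4% of peaks were gene-end peaks and 7.14% were intergenic. For 16 intergenic peaks the gap was within 100 bp. Runs of consecutive intergenic peaks spaced by at most 10 kb numbered 30 and held 65 peaks, 26 runs of 2 and 4 of 3 or more.

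In 5 cases a gene was the nearest gene of 3 or more intergenic peaks. Uncx, a homeobox gene of the vertebral precursors, had 5, with scores of 639, 185, 572, 238 and 254 on both sides of a 16313 bp end peak with a score of 3100. Nkx2-1 had 3 downstream, from chr12:56519167-56522067 with a score of 3148 through 2 pieces with scores of 296 and 406, beyond end peaks with scores of 1449 and 3100. All 3 of these intergenic peaks overlapped the lncRNA gene Sfta3-ps. Pax2, a regulator of kidney, eye and ear, had 3 upstream, with scores of 200, 364 and 1803, the last being nearest to the gene. Barhl2, a neuronal homeobox gene, had 446 on the downstream side and 1545 and 166 upstream, around an end peak of 10775 bp. Ttll6, a tubulin glutamylase gene without an end peak, had 3 (216, 233 and 1020), and its other flank was Hoxb13: with the Hoxb13 peak of score 861 they formed a run of 4 over chr11:96172575-96191425. In the plot of these 5 genes, the strong end peak lies over the gene body of Uncx and Barhl2 while the run at Ttll6 lies wholly past the gene.

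**Figure D5:**
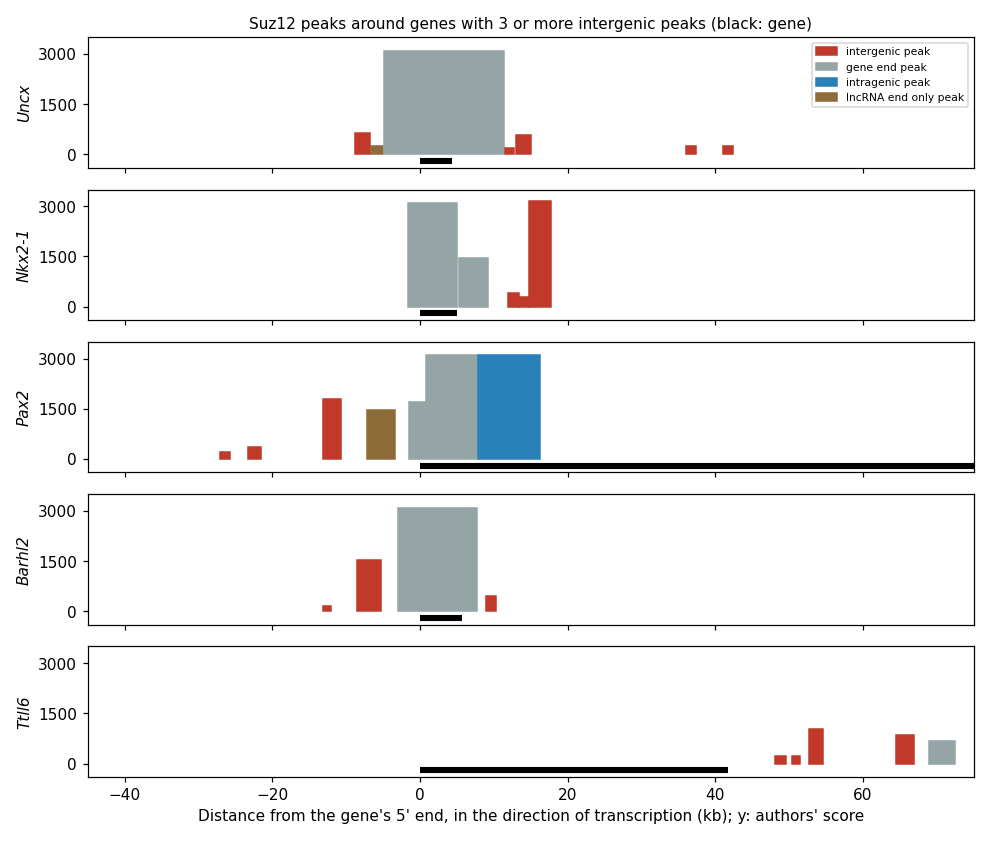
Suz12 peaks around the 5 genes with 3 or more intergenic peaks, as distance from the gene's 5′ end in the direction of transcription (kb), with the authors' score as height and the gene as a black bar. Intergenic peaks (red) flank the end peaks (grey) at Uncx and Barhl2 and within the range drawn lie on one side at Nkx2-1 and Pax2.

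Some intergenic peaks matched or passed the score of every peak at the ends of the gene they neighboured, and the order of scores at or above 3100 was given no weight. The widest of all, chr11:119051650-119059727 (8078 bp, score 3100), lay 10737 bp from Cbx8, which encodes a PRC1 subunit. The best end peak of Cbx8 was also tied at 3100. A gene-end peak with a score of 3100 lay only 489 bp from this widest peak. At Sox2, which encodes a factor of pluripotent and neural progenitor cells, a peak of 5246 bp (chr3:34660403-34665648, inside the lncRNA gene Sox2ot) had a score of 2560 and a second one (chr3:34640516-34643251) 1286, whereas the best end peak of Sox2 had a score of 993. At Vax2 the intergenic score of 3100 compared with 1227 at the gene's ends, and at Tbx3 the peak inside Tbx3os1 had 888 against 319. Gsx2 (chr5:75081984-75086699) and Neurog1 (chr13:56257478-56261453) had 3100 in both places.

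For 27 peaks the nearest gene was not developmental but the other flank was, and all 27 of those flanks (21 genes) had a peak at an end. Of all listed developmental genes 77.4% had one. Either flank was developmental for 128 peaks in all (53.1%), against 9.96% of windows. The peak with a score of 2872 nearest to Ppara had Wnt7b, a Wnt ligand gene, on its other side. A pair of peaks nearest to Ostm1 (2227 and 1019) had Nr2e1, a nuclear receptor gene of neural stem cells, and the peak nearest to Rbm19 (1886) had the LIM homeobox gene Lhx5. Peaks with scores of 317 and 315 nearest to Rragc lay 478351 and 379241 bp from the neural POU factor gene Pou3f1, and the second was also the farthest of all from any protein-coding gene, at 340145 bp.

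Imprinted genes, expressed from 1 parental copy, appeared among the neighbours, and these peaks were chosen after their values were seen. A peak with a score of 1399 lay 11642 bp from Cdkn1c and one with 352 lay 10265 bp from Kcnq1. A pair of peaks near Rasgrf1 had scores of 666 and 218, and one 89336 bp from Dio3 had 1846.

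Non-coding genes and pseudogenes were touched by 77 intergenic peaks (32.0%; 12.1% of windows). Of these 48 overlapped a lncRNA gene body (19.9%; 8.80% of windows), which the rule allows away from its ends. Besides Sfta3-ps, Sox2ot and the genes at microRNAs, they included Vax2os beside Vax2 (3100), Sox1ot beside Sox1 (1969), Otx2os1 beside Otx2 (1489) and Fendrr beside Foxf1 (1012). Pseudogenes, decayed or retrocopied genes, were touched by 21 peaks (8.71%, 5.47 to 13.0; 2.59% of windows), against 0.319% of gene-end, 0.586% of intragenic and 2.73% (0.566 to 7.76) of lncRNA-end peaks, the last with an interval that overlaps. The classes are set by position against genes, and the windows are a base for the intergenic peaks only. Their median score was 360 and median width 1129 bp, but 2 had a score of 3100, at Gm21321 (chr10:7390245-7394320) and at Gm16505 (chr13:3357770-3361652). The Gm16505 peak was 176423 bp from the nearest protein-coding gene, Gdi2, and 3285220 bp from any other peak. Reads from near-identical copies can be placed on either, and the part of this in the result was not tested.

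A last set of 56 peaks (23.2%) stood alone, with no flanking gene carrying an end peak and no other peak within 50 kb. Their median score was 323 and their median width 1227 bp. Pseudogenes were touched by 15 of the 56 (26.8%, 15.8 to 40.3), against 6 of the 185 others (3.24%, 1.20 to 6.93). A developmental nearest gene was found for 3 (5.36%, 1.12 to 14.9), against 5.12% of windows. The set leaves out peaks flanked by a gene with an end peak, which 77.4% of listed developmental genes have. That definition holds the developmental share down, so the share is not a result about these peaks. The highest scores without a pseudogene were 2246 at 28718 bp from Ap3b1, a gene of vesicle sorting, and 1674 at 23435 bp from Nos1, the neuronal nitric oxide synthase gene.

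By chromosome, number 5 held the most intergenic peaks (30, or 12.4% of its peaks) and number 13 the highest share (22, 16.4%). Per kept window, chromosome 19 was highest, with 13 peaks over 25238 windows. Chromosomes 16 and X held 2 each and chromosome 18 held 3. Counted whole, the 241 peaks fell into 101 with a developmental nearest gene, 27 with one on the other flank, 7 others over a microRNA gene, 19 others at a pseudogene, 29 others with an end peak at a flanking gene and 58 with none of these.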

How the data were processed

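Chromatin immunoprecipitation with an antibody against Suz12 followed by sequencing was deposited as 1 list of peaks for the wild-type library, and the other library of the series was not analysed here. Bowtie, MACS and build GRCm38 (mm10) are named, per the submitters' processing notes. Not given in the sources used here are versions, parameters, the control library and the handling of reads that map to several places. The deposited score per peak is the authors' own value, its scale is not stated and depth is unknown, and signal below the authors' threshold is not seen. Peaks were placed with Python 3.11.15 and pandas 2.3.3 on 21631 protein-coding and 12697 lncRNA genes of a RefSeq table on 20 chromosomes. The table gives outer gene ends, so exons, introns and UTRs were not told apart. Shares have exact (Clopper-Pearson) 95% intervals. The interval code was tested on simulated data. No test was possible with 1 library. Regions were named by rule: the 15 highest, the 10 widest, the 5 farthest, non-coding genes with a known symbol (up to 15 by score), genes with 3 or more peaks, and up to 5 genes per list. Some items that this rule names are not reported here. The members and the 11 gene lists were chosen with earlier results of these data known. Peaks within 3 kb were joined in an alternative added after seeing the data.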

Additional observations from a re-analysis of the deposited data

How the results depend on the processing

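Of 71 alternative values, 28 moved beyond the main value's 95% interval (for the number of peaks, beyond 1.5 times) and 43 did not. The values are counts, medians and shares without a sign, so none could reverse. The number of peaks stayed within 1.5 times at 298 (1 kb kept clear), 172 (5 kb), 351 (no lncRNA rule) and 175 (joined). The number of intergenic peaks was 90 when 10 kb was kept clear, 156 when genes of every kind were, 146 at scores of at least 300.6 and 90 at scores of at least the list's median (572.11). Median width was 1304 bp at 10 kb, 2051 and 2472 bp at the stricter scores, where median scores were 682 and 1119. Median distance was 9928 bp at 1 kb, 19772 at 5 kb, 33132 at 10 kb and 20535 with peaks joined. The nearest gene had a peak for 40.0% at 10 kb, 60.3% with every kind kept clear and 42.3% joined. A developmental nearest gene was found for 33.1% at 5 kb, 25.6% at 10 kb, 48.9% at the median score, 30.9% joined and 53.1% with either flank (9.96% of windows). Another peak within 10 kb was found for 40.1% at 5 kb, 28.9% at 10 kb and 28.6% joined, and within 3 kb or 50 kb for 32.8% or 67.2%. A non-coding gene was touched by 49.0% without the lncRNA rule and by 0 with every kind kept clear, by construction. The settings also fixed the direction in which counts moved under stricter rules and median scores moved at higher score cuts. The same holds for the shares with either flank or with another radius. Keeping 5 or 10 kb clear removes the peaks closest to genes, which bears on the median distance. For the others the cause was not tested. No paired analysis was possible because 1 library has a file, so no replicate could be left out either. CpG and GC content of peaks was not run, since no genome sequence was used here. Depth is unknown.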
